A study of Mus musculus with 6 samples.

Results

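The genes described here are 10 genes of fibroblast growth factor (FGF) signalling: the ligand gene Fgf4, the receptor genes Fgfr1 and Fgfr2, the feedback inhibitor genes Spry2, Spry4 and Spred1, the phosphatase genes Dusp4 and Dusp6, and the transcription factor genes Etv4 and Etv5. They are 10 of 27706 protein-coding and lincRNA genes, were chosen by name, and were read in the authors' list of 22973 H3K27ac peaks of control cells at 3 places. These were the 1 kb on either side of the transcription start site (TSS) of every annotated isoform, the gene body, and the 50 kb beyond either gene end. H3K27ac, the acetylation of histone H3 at lysine 27, is found at active promoters and enhancers.

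The study profiled H3K27ac by ChIP-seq with the antibody ab4729 in E14 mouse embryonic stem cells (mESCs), of the line E14Tg2A Rosa26-Cre Oct4-IRES-Puro, to ask whether histone acetylation depends on ongoing transcription. There were 6 samples, 2 each of control cells given DMSO, of cells treated for 120 min with 100 nM NVP-2, an inhibitor of the kinase CDK9, and of cells treated for 120 min with actinomycin D, a DNA-binding agent that blocks transcription, given as 800 nM in the labels. Chromatin of human HEK293 cells was added to every sample as a spike-in. All groups grew in N2B27 medium with leukemia inhibitory factor, 1 µM PD0325901, an inhibitor of the ERK-activating kinase MEK, and 3 µM CT-99021, an inhibitor of the kinase GSK3. The MEK inhibitor acts just above ERK in the pathway described here and was present in control and treated cells alike. Its part in the values below was not tested. The list pools both control replicates and gives positions without heights, so no value here has a replicate error or a test, and treated cells were not compared.

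FGF ligands bind receptor tyrosine kinases at the cell surface, and adaptor proteins pass the signal through RAS, RAF and MEK to the kinase ERK. ERK switches on genes that limit its own activity. Sprouty and Spred proteins act on the steps between receptor and RAF, and DUSP phosphatases remove the activating phosphates from ERK. In mESCs, FGF4 made by the cells themselves is the main source of this signal and prepares them to leave the naive pluripotent state, and ETV4 and ETV5 are ETS transcription factors made in response to it. Capicua (CIC) is a repressor that binds short DNA elements near several of these feedback genes and is released from them when ERK is active.

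The sequences that the results turn on are shown first. They were read from the mouse genome GRCm38, the build of the peak list (mm10), and are written 5′ to 3′ on the strand of the gene, from 250 bases before to 20 bases after the first base of the longest CCDS isoform (a coding isoform agreed on between annotation groups). The promoters of Etv4 (chr11:101785352-101785621, minus strand), Etv5 (chr16:22439700-22439969, minus strand) and Dusp6 (chr10:99262981-99263250, plus strand) are shown for their Capicua elements. The promoter of Fgfr2 (chr7:130266244-130266513, minus strand) is shown because it is rich in CpG and had no peak, and the Fgf4 element (chr7:144864389-144864416, plus strand) lies inside the Fgf4 peak. Capitals mark the 8 bases TGAATGAA, TGAATGGA, TCAATGAA or TCAATGGA, which Capicua is known to bind, on either strand. At the start of the Etv5 promoter they also mark an AP-1 motif, TGANTCA, and in the Fgf4 element a Sox motif followed by an octamer-like motif.
Etv4 promoter: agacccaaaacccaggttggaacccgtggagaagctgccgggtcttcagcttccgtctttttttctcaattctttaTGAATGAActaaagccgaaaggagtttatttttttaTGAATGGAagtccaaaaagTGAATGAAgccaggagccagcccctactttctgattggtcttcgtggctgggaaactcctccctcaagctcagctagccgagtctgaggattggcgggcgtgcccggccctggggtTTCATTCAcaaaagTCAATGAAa
Etv5 promoter: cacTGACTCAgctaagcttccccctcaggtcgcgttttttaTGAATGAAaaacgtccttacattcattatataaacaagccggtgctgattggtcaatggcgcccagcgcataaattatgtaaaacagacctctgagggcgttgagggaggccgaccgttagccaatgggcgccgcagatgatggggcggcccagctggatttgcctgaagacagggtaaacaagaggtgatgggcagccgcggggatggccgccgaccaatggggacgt
Dusp6 promoter: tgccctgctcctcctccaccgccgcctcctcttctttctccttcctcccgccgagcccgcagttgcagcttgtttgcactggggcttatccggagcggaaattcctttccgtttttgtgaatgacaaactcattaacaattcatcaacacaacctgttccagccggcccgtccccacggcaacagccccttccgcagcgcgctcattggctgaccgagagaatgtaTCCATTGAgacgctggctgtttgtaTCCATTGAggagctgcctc
Fgfr2 promoter: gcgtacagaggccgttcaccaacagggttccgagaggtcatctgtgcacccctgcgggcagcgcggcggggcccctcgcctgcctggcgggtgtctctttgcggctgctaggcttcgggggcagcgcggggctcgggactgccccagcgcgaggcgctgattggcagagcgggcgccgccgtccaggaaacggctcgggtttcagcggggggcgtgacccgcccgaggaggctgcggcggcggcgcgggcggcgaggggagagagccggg
Fgf4 element: aaactCTTTGTttggATGCTAATgggat

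All 10 genes had a control H3K27ac peak within 1 kb of a TSS of some isoform, where 44.2% of all 27706 genes did (95% Wilson interval 43.6 to 44.8, counting error only) and 51.8% of the 21853 protein-coding genes. For 9 of the 10 this was the TSS of a CCDS isoform, a place marked in 52.5% of the 20331 genes that have one. Fgfr2 was the exception. Its CCDS promoter had no peak, and it counted as marked through 1 of 27 annotated isoforms that starts far from the others. A peak overlapped the gene body in all 10 genes, beside 48.3% of all genes. With the body taken from the CCDS isoforms these were 9 of 10, beside 57.4% of the 20331 genes with such an isoform. For most genes this was the peak at the TSS counted again, since only Fgfr1, Etv4 and Etv5 had a separate peak in the span of their CCDS isoforms. Peaks in the 50 kb flanks were found for 7 genes, all but Fgfr2, Dusp4 and Spred1, beside 63.3% of all genes. Within 25 kb they were found for 3 genes, Fgf4, Fgfr1 and Spry4, beside 48.8% of all genes. Within 50 kb of the CCDS isoforms the list held 31 peaks, 9 at a TSS, 5 elsewhere in a gene body, 6 in an upstream flank and 11 in a downstream flank. Of the 17 flank peaks, 8 lay within 1 kb of the TSS of another gene.

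**Figure D1:**
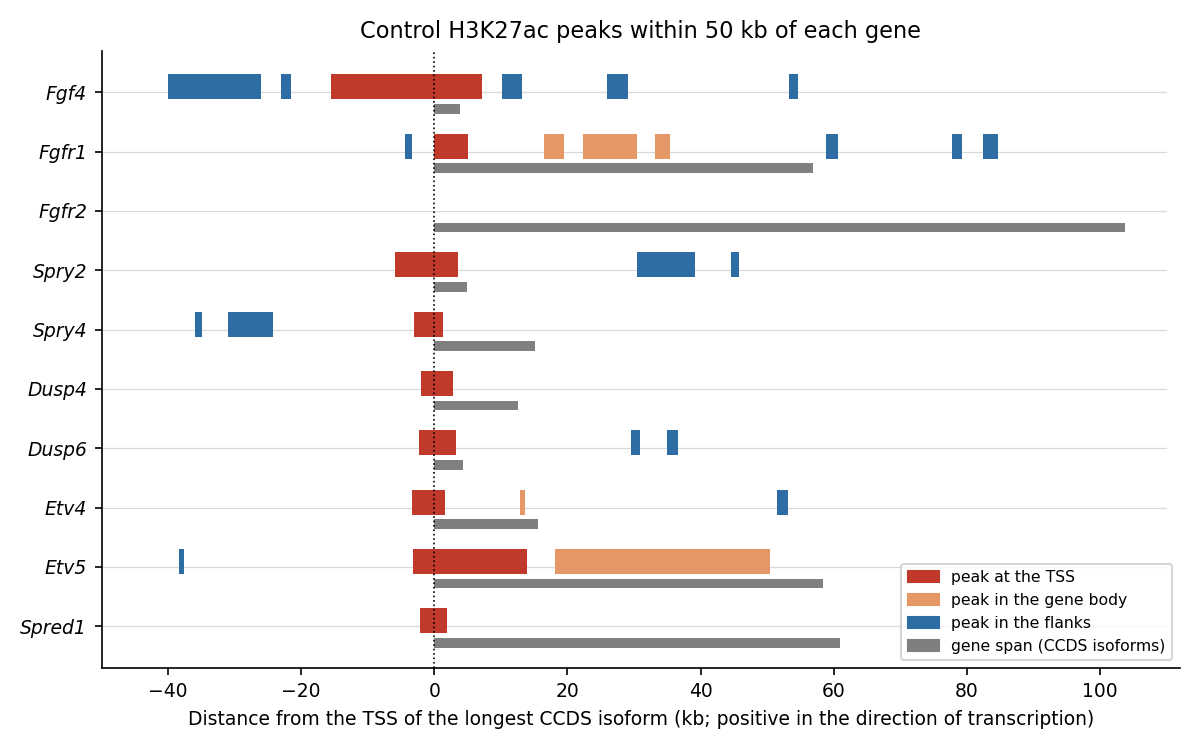
Control H3K27ac peaks around the 10 genes, drawn to scale against the distance from the TSS of the longest CCDS isoform in kb, positive in the direction of transcription. Bars on each line are peaks, coloured by place, and the grey bar below is the span of the CCDS isoforms. A peak lies over or next to the TSS of every gene but Fgfr2, and Dusp4 and Spred1 have that peak alone.

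Fgf4, the ligand gene, lay wholly inside a single peak. This peak ran over 22718 bp (chr7:144845806-144868523), from 15.6 kb before the CCDS TSS to 7.14 kb after it, while the CCDS isoform spans 3858 bp and has 3 exons. It held both annotated Fgf4 starts. Only 3.08% of the 10675 genes marked at a CCDS TSS had a wider peak there. In the flanks lay 5 more peaks. The 2 upstream peaks were nearest to the TSS of Fgf3, another FGF ligand gene: one of 14020 bp ended 2680 bp from it, and one of 1562 bp covered it. Downstream, a peak of 2894 bp began 10.2 kb after the Fgf4 TSS, with no closer TSS of another gene. A peak of 3201 bp lay 6052 bp from the TSS of Fgf15, likewise a ligand gene of this region, whose own TSS was unmarked. The last, of 1295 bp, lay at the TSSs of LTO1 and Bc1. In the 50 kb on either side of the Fgf4 TSS, peaks covered 44395 bp, more than in all but 2.03% of the 20331 genes.

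The Fgf4 peak held the element printed above, in which the Sox motif CTTTGT is followed after 4 bases by ATGCTAAT. It lies in exon 3, in the 3′ UTR, 3.01 kb after the TSS. An enhancer in this exon, bound by SOX2 and OCT4, is known to drive Fgf4 in pluripotent cells. The letters of both motifs were taken from this known enhancer, so the match at Fgf4 was given in advance. A search for them on the same strand, at most 10 bases apart, found no other match within 50 kb of the 10 genes. The genome held 901 such matches, of which 98, or 10.9%, lay inside a peak, whereas peaks covered 3.29% of the searched chromosomes.

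The receptor genes differed from each other. Fgfr1 had a peak of 4979 bp (chr8:25518779-25523757) that began 20 bp after its CCDS TSS and covered exon 1. Its gene body held 3 further peaks between 16.5 and 35.4 kb after the TSS, all intronic, of 2958, 8152 and 2239 bp. A peak of 1033 bp lay 3.42 kb before the CCDS TSS, 651 bp from the start of the isoform that begins farthest upstream. Of the 19 annotated Fgfr1 isoforms, 9 had a peak within 1 kb of their start. The 10 without one begin inside the gene, 1424 bp or more from a peak. The 3 peaks beyond the gene's 3′ end were nearest to Letm2 and Nsd3 and not to Fgfr1.

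Fgfr2 had no peak in the span of its CCDS isoforms or in the 50 kb around it. From its CCDS TSS (position 130266263 of chromosome 7) the nearest peak was 128022 bp upstream, and on the other side no peak lay closer than 570 kb from the end of the gene. The gene sits in a stretch of 801495 bp without a peak (129592789 to 130394285). Of 22952 stretches between neighbouring peaks, 2.61% were as long or longer, and the median was 26666 bp. Among the 9656 genes unmarked at their CCDS TSS, 31.6% were farther from a peak than Fgfr2. The isoform that counted as marked is annotated over 2960900 bp and starts 2.86 Mb from the CCDS TSS. Its start lies in a peak of 16313 bp at the promoter of Ctbp2, a transcriptional corepressor gene, and its span takes in 53 peaks. Whether this isoform is annotated in the release that the study used was not examined, and the count of 10 marked genes rests on it. The list cannot tell which of the 2 genes this peak belongs to.

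Among the feedback inhibitors Spry2, Spry4 and Spred1, Spry2 had the widest promoter peak, 9391 bp (chr14:105893294-105902684), which reached into both of its exons. Its 2 flank peaks, of 8702 and 1189 bp, lay 30.5 and 44.6 kb downstream, and the wider one held the TSS of the lincRNA gene Gm48970. Spry4 had a promoter peak of 4260 bp (chr18:38600171-38604430) that it shared with the start of the transcript AC133601.1 next to it. It was the only one of the 9 promoter peaks with the TSS of another gene within 1 kb. A peak of 6772 bp, 24.2 kb upstream, and one of 1105 bp, 34.9 kb upstream, both lay within the span of AC133601.1. The wider one held another TSS annotated for AC133601.1. Spred1, whose protein binds the RAS-inactivating protein neurofibromin, had a promoter peak of 4132 bp (chr2:117119197-117123328) and no other peak in its body of 60906 bp or its flanks. The peak was the narrowest of the 9.

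Both phosphatase genes were marked at the TSS. The Dusp4 peak (chr8:34805347-34810150) was 4804 bp wide and reached 2.85 kb into the gene, over exon 1 of 4, and no other peak lay within 50 kb. The Dusp6 peak (chr10:99260968-99266467) was 5500 bp wide and covered all 3 exons at least in part, in a gene of 4258 bp. DUSP4 acts in the nucleus and DUSP6 on ERK in the cytoplasm. Dusp6 had 2 flank peaks of 1264 and 1547 bp, 29.6 and 35 kb downstream, and the second covered the TSS of B530045E10Rik.

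Etv5 had the most peak-covered sequence around its TSS of the 10 genes. A peak of 17134 bp (chr16:22425782-22442915) ran from 3.2 kb before the TSS over exons 1 to 5, and a second of 32274 bp (chr16:22389245-22421518) over exons 6 to 11. Together with a peak of 840 bp inside the neighbouring gene Dgkg, peaks covered 49774 bp in the 50 kb on either side of the Etv5 TSS, and 1.2% of genes had more. Etv4, the related factor, had 5500 bp in the same window, below the median of genes marked at their TSS (8634 bp). Its promoter peak of 4890 bp (chr11:101783839-101788728) covered exons 1 to 4. A peak of 610 bp, the narrowest in a gene body here, lay over exon 9 at the start of a noncoding isoform, and a peak of 1703 bp beyond the gene covered the TSS of Dhx8.

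The promoter peaks of the 9 genes marked at a CCDS TSS were 4132 to 22718 bp wide, with a median of 4979 bp beside 2193 bp over all 10675 genes marked there. The share of those genes with a wider peak was 3.08% for Fgf4, 5.08% for Etv5, 11.8% for Spry2, 22.1% for Dusp6, 24.4% for Fgfr1, 25% for Etv4, 25.5% for Dusp4, 28.4% for Spry4 and 29.3% for Spred1. All 9 widths were thus above the median. Over a window of 50 kb on either side of the TSS, peaks covered a median of 10224 bp in the 10 genes, 3956 bp in all 20331 and 8634 bp in the 10675 marked at the TSS. Of the 9 marked genes, Dusp4, Dusp6, Etv4 and Spred1 fell below the last of these. Here the genes were spread from 0 bp at Fgfr2 and 4132 bp at Spred1 to 44395 bp at Fgf4 and 49774 bp at Etv5. Fgfr1 with 19361 bp and Spry2 with 19282 bp lay close together, above Spry4 with 12137 bp and Dusp6 with 8311 bp. Width follows the authors' joining of peaks less than 2 kb apart and is not a height, so a wide peak need not be a strong one.

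**Figure D2:**
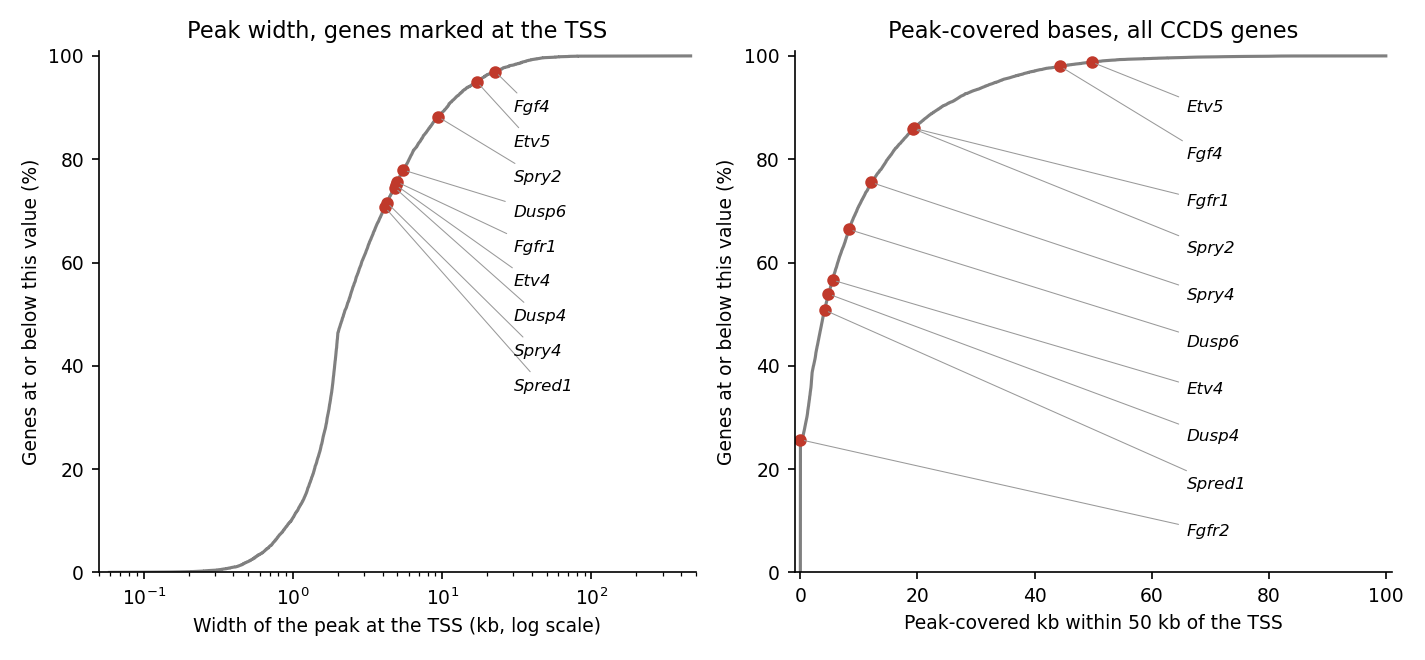
Left, cumulative share of the 10675 genes marked at a CCDS TSS by the width of the widest peak there in kb on a log scale; right, cumulative share of all 20331 genes with a CCDS isoform by the kb covered by peaks within 50 kb of the TSS. Red points are the members, all 9 above the median width on the left and running from Fgfr2 with none to Etv5 with 49774 bp on the right.

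In base composition, 9 of the 10 promoters were CpG-rich, taken as a GC content of at least 50% and a ratio of observed to expected CpG of at least 0.6 over 300 bases (250 before to 50 after the CCDS TSS), beside 46.2% of all 20331 CCDS promoters. Of all 9385 CpG-rich CCDS promoters, 81.3% had a peak. The Fgfr2 promoter printed above had a GC content of 76.3% and a CpG ratio of 1.00, and was among the CpG-rich promoters without a peak. The Spred1 promoter was alike in composition, with 82% GC and a ratio of 1.01, and had one. Etv4 fell below the CpG limit with a ratio of 0.57 at 51% GC and had a peak. Over all CCDS promoters, 71.5% of those with a peak were CpG-rich and 18.1% of those without.

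Capicua elements were found in the promoters of 6 of the 10 genes, in the same 300 bases: 5 in Etv4, 2 in Dusp6 and 1 each in Spry2, Spry4, Dusp4 and Etv5. Of all 20331 CCDS promoters, 3.08% held at least 1, 0.231% at least 2 and 0.0541% at least 3. Among the 10675 promoters with a peak, 2.27% held at least 1. These letters were chosen after the promoter sequences had been seen, so the counts are a description. The promoters of Fgf4, Fgfr1, Fgfr2 and Spred1 held none. In the 1 kb on either side of the TSS the same 6 genes had matches, 5 in Dusp6 and in Etv4, 2 in Dusp4 and in Etv5, and 1 in Spry2 and in Spry4, where 24.9% of all promoters held at least 1 and 5.15% at least 2. Of the other FGF pathway genes listed below, 4 of 74 with a CCDS isoform held an element in the 300 bases. These were Spred3 and the ligand genes Fgf16, Fgf21 and Fgf23. None of the 10 LIF and STAT3, 10 Wnt or 10 Nodal and BMP genes held one. With 3.08% of all promoters holding one, most lists of 10 genes would hold none, so these lists set no contrast.

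**Figure D3:**
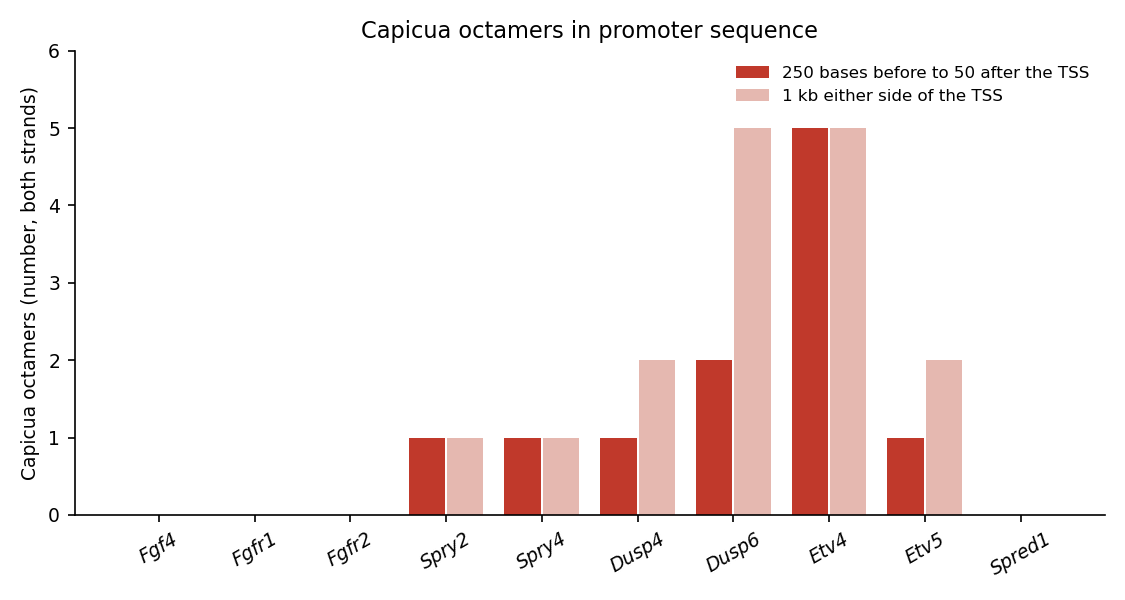
Number of Capicua octamers (TGAATGAA, TGAATGGA, TCAATGAA or TCAATGGA, both strands) in the promoter sequence of each of the 10 genes, in 300 bases at the CCDS TSS (dark bars) and in the 1 kb on either side (light bars). Etv4 has 5 in both windows, Dusp6 has 2 and 5, and the ligand, receptor and Spred1 promoters have none.

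Of the other motifs searched on both strands around the start of the longest isoform, AP-1 (TGANTCA) was found at Etv5, and the STAT motif TTCNNNGAA at Spry4. All 27706 promoters held these in 7.3% and 8.52%. The ETS motif CCGGAAG (9.63% of all promoters), the TCF/LEF motif TCAAAG (16%), the ESRRB motif TCAAGGTCA (0.523%), the POU octamer ATGCAAAT (1.67%), the cyclic AMP response element TGACGTCA (2.09%) and the CArG box (1.5%) had no match in the 10 windows. For Fgfr2 the longest isoform is the one that starts at Ctbp2, and for Fgf4 one that starts upstream of the CCDS isoform. In the windows at the CCDS TSS, AP-1 was again found at Etv5 and STAT at Spry4, and the other motifs at none of the 10. No match says only that these letters are not in these 300 bases.

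The other genes of the pathway are given by level, from ligand to target. Of 22 FGF ligand genes, 5 had a peak at a TSS: Fgf4, Fgf3, Fgf11, Fgf17 and Fgf20, the last only at an isoform outside the CCDS set. Fgf17 had a peak of 30079 bp there. For listed genes that are not among the 10, TSSs of other genes in the same peak were not looked for. Fgf5 and Fgf8, ligands made once cells leave the naive state, were unmarked, with the nearest peak 67950 bp from the Fgf5 TSS and 3834 bp from that of Fgf8. Of 7 receptor and co-receptor genes, Fgfr1, Fgfr2 (through the distant isoform) and Fgfrl1, a receptor without a kinase domain, were marked, and Fgfr3, Fgfr4, Kl and Klb were not. All 10 adaptor genes, such as Frs2, Grb2 and Sos1, and all 15 genes of the cascade list, which runs from RAS to the RSK kinases below ERK and holds Braf and Map2k1, had a peak. Ksr2, which has no CCDS isoform in the annotation, is one of them. So did all 9 feedback inhibitors in the annotation, with Spry1, Spred2, Spred3, Il17rd, Rasa1 and Nf1 beside the members. Of 7 ERK phosphatase genes, Dusp1, Dusp4, Dusp6, Dusp7 and Dusp9 were marked and Dusp2 and Dusp5 were not. Of 15 ETS and other target genes, 13 were marked, among them Etv1 with 3515 bp and the gene of Capicua itself, Cic, with 23350 bp, and Ets1 and Fosl1 were not. Together 60 of 85 pathway genes were marked, and 50 of the 75 that are not among the 10, or 66.7%, beside 44.2% of all genes and 51.8% of protein-coding genes. Of other signals in these cells, 9 of 10 LIF and STAT3 genes were marked, 9 of 10 Wnt genes and 7 of 10 Nodal and BMP genes.

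**Figure D4:**
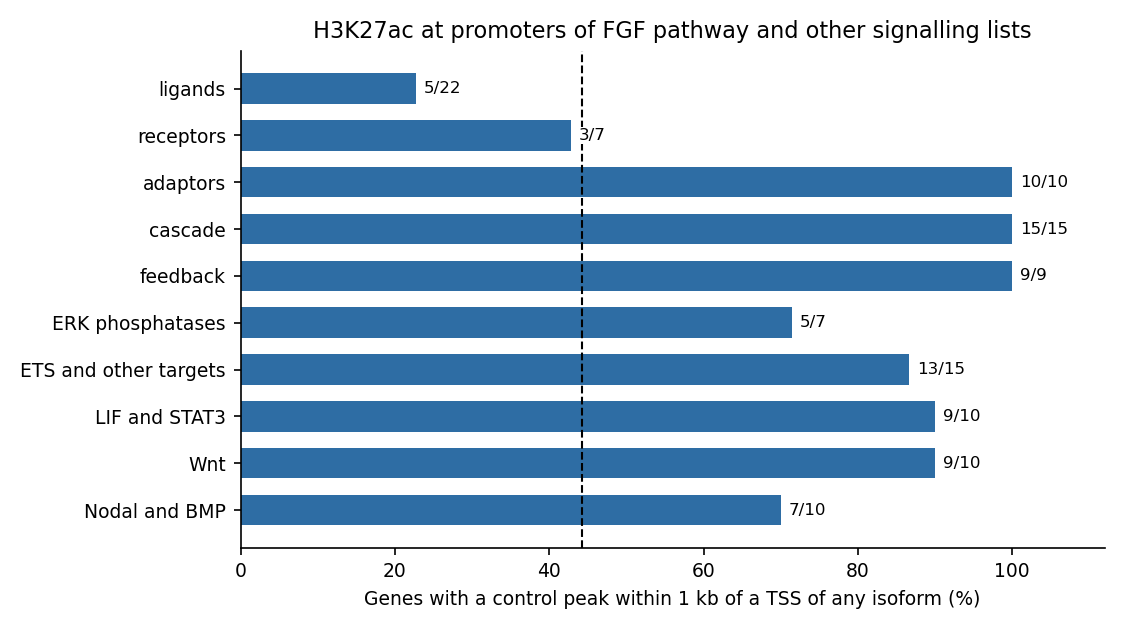
Share of genes with a control H3K27ac peak within 1 kb of a TSS of any isoform (%), for the FGF pathway lists from ligand to target and for 3 other signalling lists. Numbers are marked genes of genes found in the annotation, and the dashed line is the 44.2% of all genes, lincRNA genes included (51.8% of protein-coding genes). The ligand list, with 5 of 22, and the receptor list, with 3 of 7, lie below the line. The adaptor, cascade and feedback lists are marked in full.

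The labelled cell type was checked against marker genes. Of 14 mES cell markers, 12 were marked, among them Fgf4, Pou5f1, Sox2 and Nanog, but not Klf4 and Dppa3. Of 13 genes of differentiated lineages, 5 were marked (Sox1, Eomes, Otx2, Gata4 and Gata6), and of 6 fibroblast genes none was, beside 44.2% of all genes and 51.8% of protein-coding genes.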

How the data were processed

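H3K27ac ChIP-seq was performed on 2 control, 2 NVP-2 and 2 actinomycin D samples of E14 mESCs. The deposited file used here is the list of control peaks, whose start and end columns are positions in mm10 pooled over both control replicates, with no score. According to the methods, the authors trimmed reads with Cutadapt, aligned them with bwa meme, marked and discarded duplicates (Picard 2.9.1), filtered on mapping quality (Samtools 1.4) and ran LanceOtron, then joined peaks within 2 kb, and dropped low peaks and peaks away from ATAC-seq summits. A promoter without a listed peak may therefore have had signal below these limits, and depth cannot be read from the list.

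Peaks were compared with GENCODE M21 (GRCm38), not the release the study used, counting overlaps of at least 1 bp. All isoforms of 27706 protein-coding and lincRNA genes were used, 110068 in number. The share of all genes marked at a TSS is given with a 95% Wilson interval, and the other shares without one. No test was made, since 1 pooled list has no replicates. The members and gene lists were chosen with earlier results of these data known. All members were named, with their families, genes in a minority of 5 or fewer in a list, and genes next to a peak. Counts restricted to CCDS isoforms and the Capicua search were chosen after the data were seen. Spry3 was listed but is not in the annotation used. RefSeq's promoter table held 6 members, and 3 windows were identical to those used here. On simulated peaks, all 3000 windows were recovered. Python 3.11.15, numpy 2.4.6, pandas 2.3.3, pysam 0.24.0 and matplotlib 3.10.9 were used. The other peak and signal files were not analysed here.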

Additional observations from a re-analysis of the deposited data

How the results depend on the processing

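Windows of 500 bp or 2 kb, the TSS alone, the longest isoform, protein-encoding isoforms, peaks of at least 1 kb and overlaps of at least 500 bp all left 10 of 10 genes marked at a TSS. In each of these settings Fgfr2 counted through the isoform that starts at Ctbp2. This isoform is its longest and is annotated as protein-coding, so none of them could remove Fgfr2. With CCDS isoforms alone, added after the data were seen, Fgfr2 was lost. A gene body peak was found in 10 genes, and in 7 by peak midpoint. It was found in 8 when only body bases outside the TSS windows counted. A TSS peak that reached past its window still counted there, so the 8 is not a number of genes with a separate peak. No share over all genes was computed for the 8 or the 7. Genes with a flank peak numbered 7, but 3 with flanks of 25 kb, where 48.8% of all genes had one. The median number of flank peaks was 1.5, beside 1 over all 27706 genes. It was 0 with 25 kb, 3.5 with 100 kb and 0.5 around the TSS of the longest isoform, settings without a median over all genes. The median width of the widest TSS peak was 5239.5 bp over any isoform and 4979 bp over CCDS isoforms. With all isoforms, which give Fgfr1 and Fgfr2 many more windows, the ETS motif was found in 2 genes (14.6% of all genes), AP-1 in 3 (17.2%), STAT in 3 (18.5%), TCF/LEF in 4 (33.6%) and the POU octamer in 1 (3.74%). AP-1 was in 0 with 150 bases on either side (6.53%). The 6 genes with a Capicua element were the same in both windows. No paired analysis was possible because 1 pooled control list was used and treated cells entered no comparison, and for the same reason no replicate could be left out.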
